A study of Mus musculus with 2 samples.

Results

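Non-dividing CD4 T cells were studied in the spleen of mice treated with tacrolimus after an allogeneic transplant. A cell was a member if it had a Cd4 transcript and no transcript of Cd8a, Cd8b1, Mki67 or Top2a among cells with at least 200 detected genes. There were 83 such cells among the 1475 kept cells of the tacrolimus library, which held 1688 cells of the 3239 in the study. They were set beside 211 dividing CD4 cells (a Cd4 transcript, no CD8 transcript, and Mki67 or Top2a present) and 158 non-dividing CD8 cells (a Cd8b1 transcript and no transcript of Cd4, Mki67 or Top2a) of the same library.

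The study compared donor T cells under tacrolimus with those under an antibody to IL-2. Wild-type BALB/c recipients were lethally irradiated, received spleen and bone marrow cells of wild-type C57BL/6 donors by vein, and were treated from day 0 to day 6. Spleen cells were taken on day 6 for droplet-based 5′ single-cell RNA-seq. There was 1 library per treatment, and neither the number of mice behind it nor any pooling of them is given in the sources used here. All 3 groups of cells therefore share the strains and genotypes of donors and hosts, the drug, the day and the library. Whether each cell came from the donor or the host was not examined here. Cells are not replicates of an animal, so no test was made. Differences are described by size, with intervals that cover counting error only.

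CD4 T cells recognise peptide on MHC class II molecules and help other immune cells through CD40 ligand, other ligands of the TNF family and secreted cytokines. Against foreign class II molecules some of them divide and become effector cells, which enter tissues in graft-versus-host disease. Tacrolimus blocks calcineurin, the phosphatase that brings NFAT into the nucleus after stimulation of the T-cell receptor, and so lowers transcription of cytokine genes such as Il2. TCF-1, the product of Tcf7, marks naive, memory and stem-like T cells, and CXCR5 guides helper cells to B-cell follicles.

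Whole transcript counts (unique molecular identifiers, UMIs) could be recovered for 2000 genes in every tacrolimus cell. Members held 5109 to 20652 UMIs with a median of 8680, dividing CD4 cells a median of 13431, and non-dividing CD8 cells a median of 8728. Members showed a median of 264 detected genes, dividing CD4 cells 438 and non-dividing CD8 cells 275. To allow for depth, shares of cells with a UMI are given after each cell was thinned at random to 6924 UMIs, which kept 74, 198 and 123 cells of the 3 groups in that order and left out 9, 13 and 35 shallower ones. Levels are UMIs per 10000, summed over the cells of a group. A gene is called higher or lower by the size rule where levels differed at least 1.5-fold, the thinned shares differed the same way, and the higher group had a UMI in at least 5% of its thinned cells. The 5 genes that chose the cells were left out, so 1995 genes were compared. Each UMI stands for 1 captured transcript end, whatever the length of the gene.

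Most members showed few transcripts of cell cycle genes beyond the 2 that chose them, but some showed many. The 55 measured S phase, G2 and mitosis genes gave 9.07 to 189 UMIs per 10000 in single members, with a median of 34.1. In dividing CD4 cells they gave 9.62 to 378 with a median of 219, and in non-dividing CD8 cells 8.73 to 311 with a median of 42.9. At equal depth a member had a median of 10 of these genes detected, a dividing CD4 cell 35.5 and a non-dividing CD8 cell 12. Of the 83 members, 59 had no UMI of Ccna2, Cdk1, Aurkb or Birc5, which encode cyclin A2, the mitotic kinases CDK1 and Aurora B, and survivin. These genes follow the genes of the rule, so their low level is a description of the choice and no finding. When dividing CD4 cells were thinned, 13 of 198 (6.57%) no longer showed Mki67 or Top2a.

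**Figure D1:**
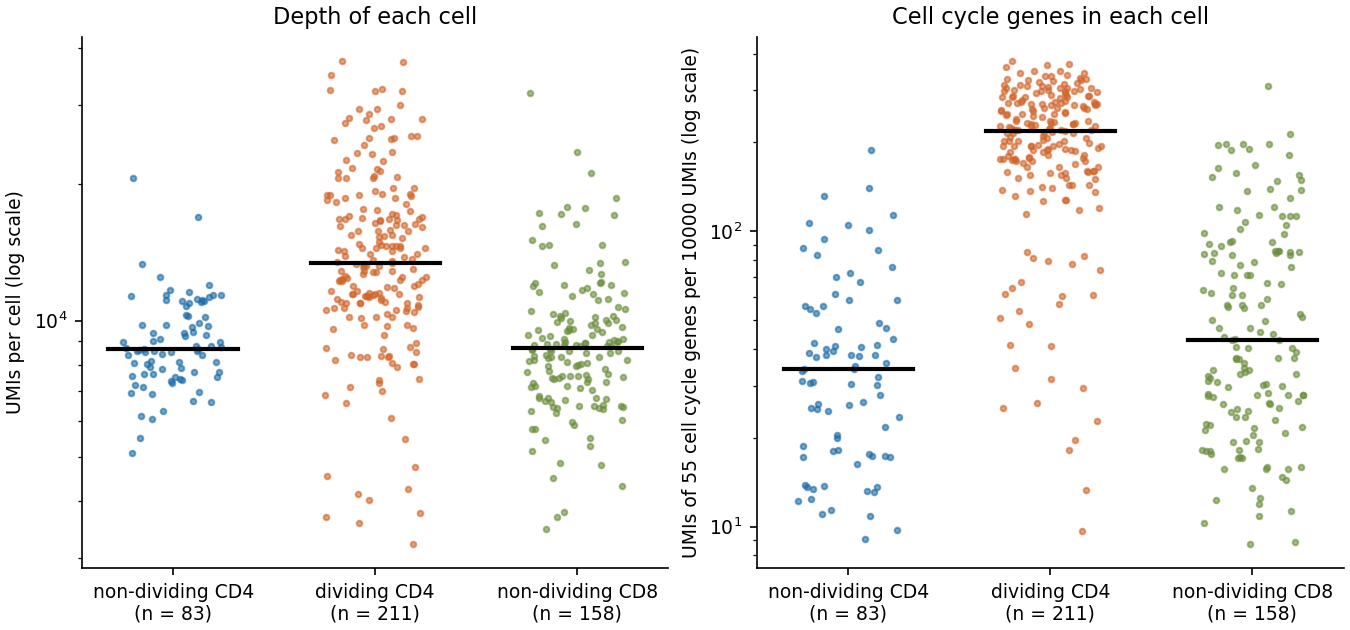
Each point is 1 cell of the tacrolimus library: UMIs per cell (left) and UMIs of 55 cell cycle genes per 10000 UMIs (right), both on log axes, for the 83 non-dividing CD4, 211 dividing CD4 and 158 non-dividing CD8 cells, with black bars at the medians. Members are shallower than dividing CD4 cells (medians 8680 and 13431) and have fewer cell cycle UMIs (medians 34.1 and 219), with overlap between the groups in both panels.

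The helper label held in genes that the rule did not use. Cd40lg, which encodes CD40 ligand, gave 85 UMIs in 48 of the 83 members, at most 6 in 1 cell, and 0 UMIs in all 158 non-dividing CD8 cells. At equal depth it was in 50% of members (38.1 to 61.9%) and 44.4% of dividing CD4 cells (37.4 to 51.7%). Its level was at least 55.3-fold higher than in non-dividing CD8 cells, with 3 counts over that group as the floor. Among 34 cells with at least 3 of 10 measured B-cell genes and no Cd4 or CD8 UMI (median 11827.5 UMIs; these cells were chosen after values were seen), Cd40lg and the T-cell gene Cd5 were in 0, which allows a share of cells with a UMI of up to 8.82% by a floor of 3 counts. Cd5, an inhibitory surface receptor of T cells, was in 82.4% of members at equal depth (71.8 to 90.3%). The other T-cell gene that was measured, Cd6, was in 51.4%. Genes of the CD3 complex were not among the measured genes.

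All 5 measured helper genes were higher in members than in non-dividing CD8 cells, a comparison in which 132 of 1995 genes (6.62%) were higher and 177 (8.87%) lower. Tnfrsf4, which encodes the costimulatory receptor OX40, stood at 1.76 UMIs per 10000 in members and 0.189 in CD8 cells, a ratio of 9.35 (6.18 to 14.6). Icos, a further costimulatory receptor, stood at 4.75 and 1.06, a ratio of 4.49 (3.71 to 5.45). Cd200, an inhibitory ligand, and Tnfsf8, the CD30 ligand gene, had log2 ratios of 1.64 and 3.38. The list median was 3.22, where all 914 genes with enough UMIs had a median of -0.20. Maf, a transcription factor of helper cells, was in 50% of members and 10.6% of CD8 cells at equal depth, a 4.95-fold difference in level (3.20 to 7.82). Cd40lg, Icos, Tnfrsf4 and Maf were called higher under all 15 alternative settings. Against dividing CD4 cells, 1 of the 5 helper genes was called, Tnfsf8, and the list median was 0.42.

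**Figure D2:**
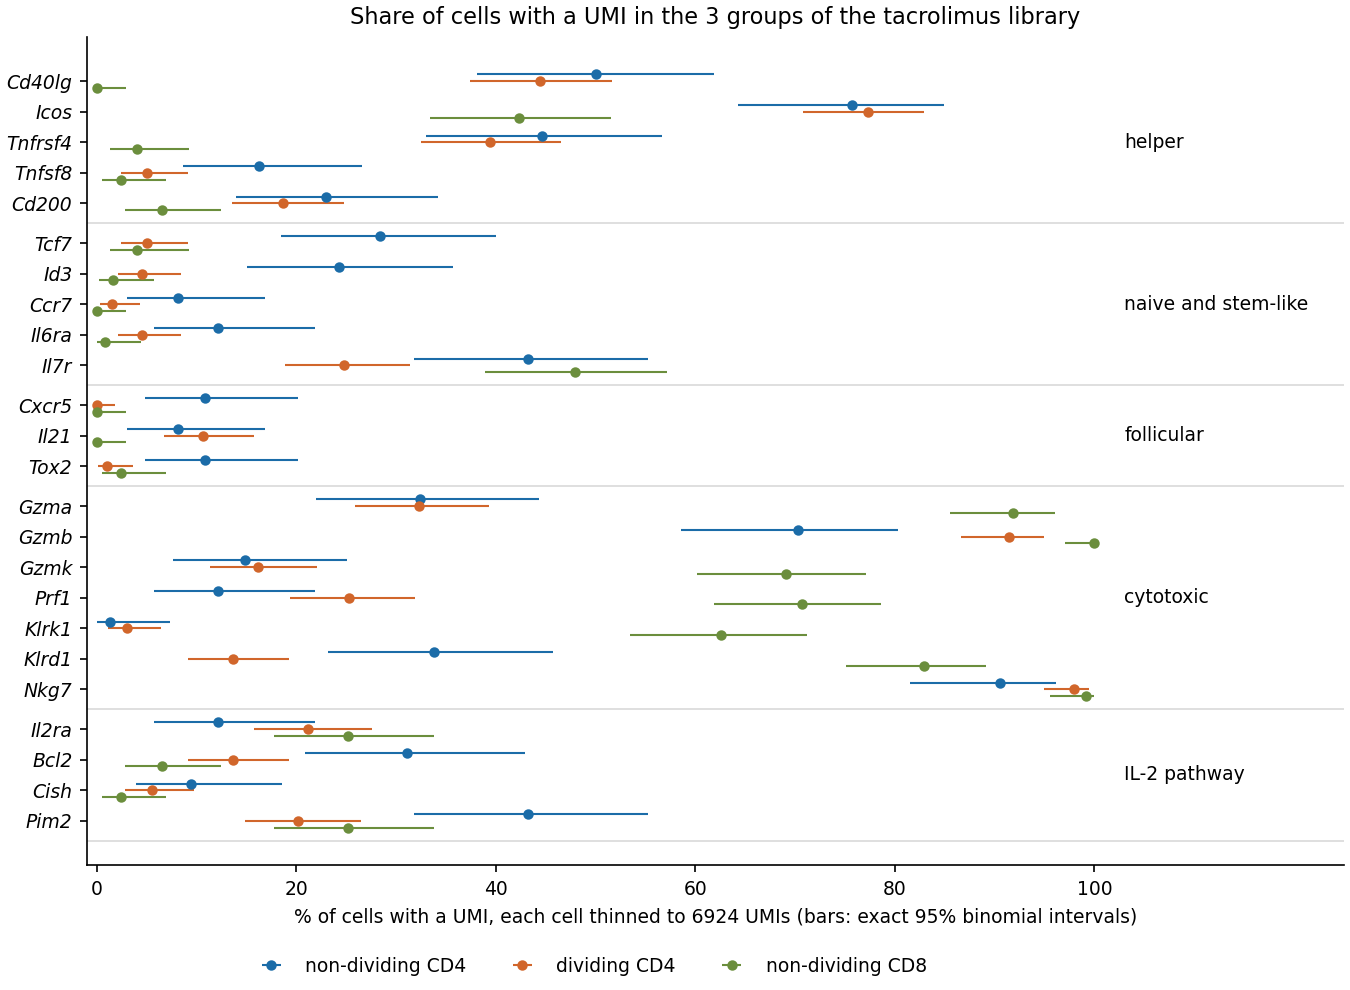
Percent of cells with a UMI of each gene after every cell was thinned to 6924 UMIs (horizontal axis), with exact 95% binomial intervals, for 74 non-dividing CD4 (blue), 198 dividing CD4 (orange) and 123 non-dividing CD8 cells (green). Cd40lg and Icos shares of both CD4 groups lie close together and above those of CD8 cells, Tcf7 and Id3 stand out in members (28.4% and 24.3%), and granzyme genes are in the largest shares of CD8 cells.

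Set against dividing CD4 cells, members carried more transcripts of naive, memory and stem-like genes. Over all genes, 115 of 1995 (5.76%) were higher in members and 398 (19.9%) lower, so calls leaned to the lower side. This split follows the scaling. Under median of ratios scaling, in which the median gene is set near 0, 190 were higher and 286 lower, so 39.9% of calls were higher in place of 22.4%. The genes called also depended on depth: at matched totals, that is among the 41 members and 26 dividing CD4 cells with 7665 to 10291 UMIs (the interquartile range of members), 53 of the 115 higher and 269 of the 398 lower genes were called again. All 5 genes described from the naive, memory and stem-like list were higher, with a median log2 ratio of 1.74, where the 975 genes with enough UMIs had a median of -0.53. The list median stayed between 1.38 and 2.42 over the alternatives. It covers only genes with at least 10 UMIs over both groups, so the genes behind it can differ between alternatives. At matched totals Ccr7, Il6ra and Il7r had log2 ratios of 0.10, 0.17 and -0.10. The range therefore does not speak for each gene, nor, at matched totals, for the 5 genes together.

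Tcf7 was detected in 26 of 83 members, with 1 to 13 UMIs in a cell, in 18 of 211 dividing CD4 cells and in 9 of 158 non-dividing CD8 cells, where no cell had more than 1. At equal depth the shares were 28.4% (18.5 to 40.1%), 5.05% (2.45 to 9.09%) and 4.07% (1.33 to 9.23%). The interval of members does not overlap the others, but these intervals cover counting error only and not differences between mice. The level was 1.49 UMIs per 10000 in members and 0.187 in dividing CD4 cells, a ratio of 7.97 (5.77 to 11.1), and it was 24.5 times that of CD8 cells (12.5 to 55). In the 34 cells with B-cell genes Tcf7 was in 1 (2.94%). Id3, an inhibitor of E proteins in memory T cells, was in 24.3%, 4.55% and 1.63% of the 3 groups at equal depth, and its level in members was 4.53 times that of dividing CD4 cells (3.11 to 6.61). The lymph node homing receptor gene Ccr7 was in 9 members, and its ratio to dividing CD4 cells rests on few cells (log2 1.74). Ccr7 missed the call at matched totals, with 0.10, and with a minimum of 300 genes per cell, with -0.15. It also missed a minimum share of 10%. Il6ra, an IL-6 receptor chain gene, was in 13 members (log2 1.70), and Il7r, the IL-7 receptor gene of long-lived T cells, in 44 (log2 1.48). At matched totals Il7r had a log2 ratio of -0.10 and Il6ra 0.17. Tcf7 and Id3 were called higher there and under all the other alternatives.

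Follicular helper genes divided within the list. Cxcr5 gave 25 UMIs in 12 members, at most 5 in 1 cell, and 0 in the 211 dividing CD4 and 158 CD8 cells. The difference was at least 34.7-fold against dividing CD4 cells and at least 16.3-fold against CD8 cells, again with 3 counts over the group as the floor. Tox2, a transcription factor gene expressed in follicular helper cells, was in 9 members and 7 dividing CD4 cells, a ratio of 8.33 (3.72 to 19.9). Its log2 ratio was 0.26 with a minimum of 300 genes per cell, which kept 24 members. Il21, the cytokine gene through which such cells help B cells, was in 7 members and 35 dividing CD4 cells (8.11% and 10.6% at equal depth) and in 0 CD8 cells. Of 9 measured follicular helper genes, Cxcr5 and Tox2 were higher than in dividing CD4 cells and 0 were lower. Against CD8 cells 4 were higher, these 2 with Il21 and Angptl2. Angptl2 was called there in only 8 of 14 alternatives, and not at matched totals or with a second random draw of the thinning.

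Other genes with the highest ratios to dividing CD4 cells were Nsg2, Slfn5, Mx1, Ifit1, Pydc4, Tbc1d4, Ahr and Rasl11a. Nsg2, best known from neurons, was in 18 members, 8 dividing CD4 cells and 0 CD8 cells (20.3%, 2.53% and 0% at equal depth), a ratio of 9.63 to dividing CD4 cells (5.23 to 18.5). Tbc1d4, a regulator of glucose transporter traffic, was in 17 members, with a ratio of 6.34 (3.55 to 11.6). Ahr, the aryl hydrocarbon receptor gene, was in 10 members. Rgs10, a regulator of G protein signalling, was in 38 members and 40 dividing CD4 cells, a ratio of 4.68 (3.53 to 6.21), and it stood 4.44-fold above CD8 cells. Nsg2 and Rgs10 were called higher in both comparisons under every alternative.

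Type I interferon response genes were higher in members than in dividing CD4 cells for 10 of 18 measured genes and lower for 0, with a list median of 1.62. Ifi27l2a, an interferon-inducible gene, was among the 15 genes with the most UMIs in members. It stood at 29.5 UMIs per 10000 there, 13.1 in dividing CD4 and 6.92 in non-dividing CD8 cells. Isg15, a ubiquitin-like interferon product, was in 43.2% of members (31.8 to 55.3%) and 25.3% of dividing CD4 cells (19.4 to 31.9%) at equal depth. Rtp4 stood at 0.882 and 0.215 UMIs per 10000, Slfn5 at 0.395 and 0.0474, and Irf7, a transcription factor that amplifies the response, at 0.843 and 0.376. At matched totals the list median was 0.36, and the log2 ratios of Ifi27l2a, Isg15 and Rtp4 were -0.05, -0.47 and -0.01, while Slfn5 was called higher under all 15 alternatives. Ifi27l2a and Isg15 are not T-cell genes alone, and 85.3% and 76.5% of the 34 cells with B-cell genes had a UMI of them. Against CD8 cells, 5 of the 18 were higher (Isg20, Ifi27l2a, Slfn5, Oas1a and Slfn1), Usp18 was lower, and the median was 0.14. Of 11 interferon-gamma response genes, 4 were higher than in dividing CD4 cells (Gbp2, Igtp, Gbp4 and Irgm2), with a median of 0.52 that became -0.70 at matched totals.

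Set against dividing CD4 cells, most genes of the survival and death list were higher in members and most growth genes lower. Of 7 measured survival and death genes, 5 were higher than in dividing CD4 cells and 0 lower (median 1.12). Bcl2, which encodes the anti-apoptotic protein of that name, was in 31.1% of members (20.8 to 42.9%) and 13.6% of dividing CD4 cells (9.18 to 19.2%) at equal depth, and in 6.50% of CD8 cells. It was also in 29.4% of the 34 cells with B-cell genes, which express it themselves. Pim2, a survival kinase gene, was in 43.2%, 20.2% and 25.2% of the 3 groups. The others were Bcl2l11, which encodes the pro-apoptotic protein BIM, Bcl2a1b and Trp53inp1, and transcripts of Bcl2a1b cannot be told apart with certainty from those of its near-identical copies. Bcl2a1b was called in 11 of 15 alternatives. Of 3 quiescence genes, Btg2 and Ddit4, an antiproliferative factor and an inhibitor of mTORC1, were higher (log2 0.87 and 0.60). Ddit4 was called in only 8 of 15 alternatives and not at matched totals. Among 21 growth genes that MYC or mTORC1 drive, 18 were lower and 0 higher (median -1.04, and -0.26 to -1.13 over the alternatives). Myc was in 13.5% and 18.7% at equal depth, with a log2 ratio of -1.47 that became 0.04 at matched totals. Ncl, the nucleolin gene, and Slc7a5, an amino acid transporter gene, were also lower. Ncl stood at 2.59 and 5.19 UMIs per 10000, and Slc7a5 at 0.145 and 0.370. Against CD8 cells 2 of the 7 survival and death genes were higher, Bcl2 and Pim2 (median 0.06), and only Asns and Phgdh of the growth genes were lower, with a median of -0.30.

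Genes of the cell cycle lists were lower than in dividing CD4 cells for 24 of 24 S phase, 30 of 31 G2 and mitosis and 16 of 16 replication histone genes. The median log2 ratios were -1.95, -4.38 and -2.88. The 12 genes with the lowest ratios were Nusap1, Fbxo5, Cdk1, Hist1h2ap, Hist1h3b, Ska1, Spc25, Shcbp1, Plk1, Cep55, Hmmr and Neil3, which act in replication, mitosis or chromatin or rise in dividing cells. Plk1, a mitotic kinase gene, was in 0 members and 145 dividing CD4 cells. The rule selected on Mki67 and Top2a, so nothing is read from these counts. Compared with CD8 cells chosen by the same genes, members still had lower levels for 9 of 24 S phase and 14 of 31 G2 and mitosis genes, with Cks2 the 1 higher gene (medians -0.48 and -0.80). Over all genes 8.87% were lower in this comparison. The S phase median against CD8 cells was 0.13 at matched totals, and the G2 and mitosis median ran from -1.02 to -0.0097 over the alternatives. Hmgb2, a gene of the G2 and mitosis list, was called lower than in CD8 cells in only 6 of 15. Ccna2 was in 6.76% of members and 14.6% of those CD8 cells, and Birc5 in 20.3% and 39.0%.

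**Figure D3:**
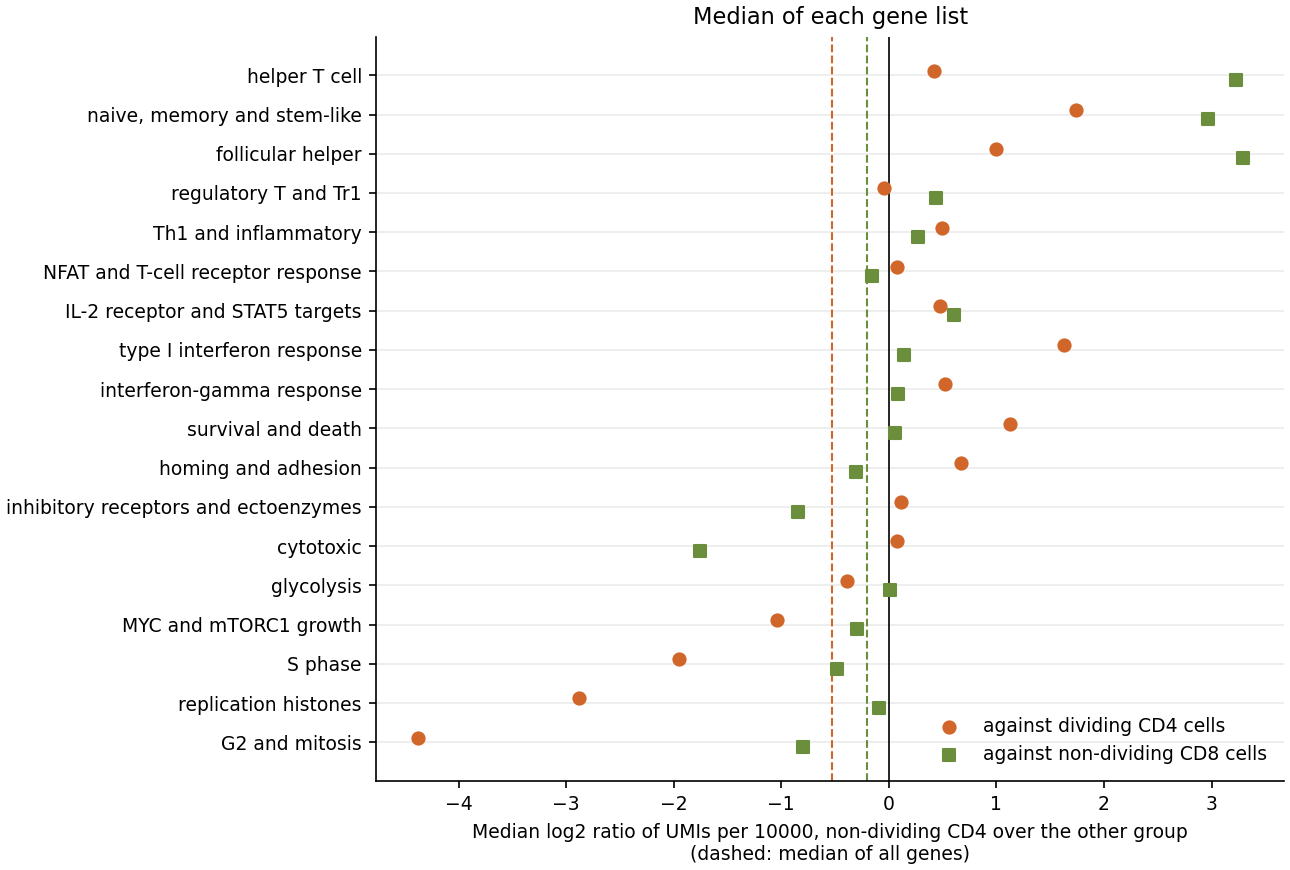
Median log2 ratio of UMIs per 10000 (horizontal axis) over the measured genes of each list, members over dividing CD4 cells (orange circles) and over non-dividing CD8 cells (green squares), with dashed lines at the medians of all genes (-0.53 and -0.20). The naive, memory and stem-like list lies to the right in both comparisons (1.74 and 2.97), cell cycle lists lie far to the left against dividing CD4 cells, and the cytotoxic list lies to the left against CD8 cells only (-1.76).

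Cytotoxic genes were present in members but lower than in CD8 cells for 14 of 20 measured genes and higher for 0 (median -1.76). Gzmb, which encodes granzyme B, was in 58 of 83 members with up to 223 UMIs in a cell, and it was in 70.3% of members (58.5 to 80.3%), 91.4% of dividing CD4 and 100% of CD8 cells at equal depth. The level was 14.1 UMIs per 10000 in members and 36.4 in CD8 cells, a ratio of 0.387 (0.362 to 0.413). It was not called against dividing CD4 cells, which had 18.3. That held in 13 of 15 alternatives, but not at matched totals or without the top cell of each gene. The call against CD8 cells was kept in 13 of 15. It was lost with the size rule on thinned shares and with a minimum of 300 genes per cell. Of the 34 cells with B-cell genes, 4 (11.8%, 3.30 to 27.5%) had a Gzmb UMI and 0 had Gzma, a further granzyme gene. Gzma was in 32.4%, 32.3% and 91.9% of the 3 groups, a ratio to CD8 cells of 0.0963 (0.0867 to 0.107). Gzmk and Prf1, a granzyme and the perforin gene, had log2 ratios to CD8 cells of -2.72 and -2.97. Klrk1, the gene of the activating receptor NKG2D, was in 3 members and 112 of 158 CD8 cells, a log2 ratio of -4.39. Itgax, Wdr95, Amica1, Nrgn, Fgr, Fcer1g, Cd79b, Mt2 and Cep55 were also among the 12 lowest against CD8 cells. Of these, Cd79b is on the B-cell list and Itgax on the myeloid and dendritic list, and both lists had more summed UMIs per 10000 in CD8 cells. The Cd79b call was lost with cells that had other-lineage genes left out. Gzma, Gzmk, Prf1 and Klrk1 were called lower under all 15 alternatives.

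Against dividing CD4 cells the cytotoxic list went both ways, with 4 genes higher (Gzma, Klrd1, Klrg1 and Gzmm), 3 lower (Gzmc, Serpinb9 and Fcer1g) and a median of 0.08 that was below 0 under 4 of the alternatives. Klrd1, which encodes the receptor CD94, was in 33.8% of members (23.2 to 45.7%) and 13.6% of dividing CD4 cells (9.18 to 19.2%) and was called higher under all 15. Gzma was called in only 5 of the 15 and was lower at matched totals (-0.85), and Klrg1 was called in 10 and was also lower there (-1.22). Serpinb9, an inhibitor of granzyme B, was in 47.3% and 70.7% at equal depth.

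Inhibitory receptor genes mostly stood below CD8 cells. Pdcd1, which encodes PD-1, was in 45.9% of members and 67.5% of CD8 cells at equal depth, with 1.25 and 2.37 UMIs per 10000. Lag3 and Cd160, Havcr2 and Entpd1 (the genes of TIM-3 and CD39) were also lower, while Ctla4 and Tox, the gene of a nuclear factor of T cells under lasting stimulation, were higher (log2 0.85 and 1.30). The list median against CD8 cells was -0.84. Against dividing CD4 cells 1 of the 7 was called, Cd160 (log2 1.63), and Pdcd1 had a log2 ratio of -0.04. Of 14 homing genes 6 were higher than in dividing CD4 cells and 0 lower, among them Cxcr6 and Itgb1, a chemokine receptor and an integrin chain gene, and Ccr2, a further chemokine receptor gene (log2 0.71, 0.71 and 0.67). Cxcr6 was called in 10 of 15 alternatives and Ccr2 in 12, and neither at matched totals. The homing list median was 0.67, and -0.15 at matched totals. Against CD8 cells 2 homing genes were higher (Itgb1 and Ccr7) and 5 lower (Ly6c1, Ly6c2, Lgals3, Cx3cr1 and Itga1), and reads of Ly6c1 and Ly6c2, near-identical copies, may be split between them.

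Genes downstream of the pathway that tacrolimus blocks went both ways. Of 13 measured NFAT and T-cell receptor response genes, 1 was higher than in dividing CD4 cells (Dusp2) and 3 were lower (Myc, Nr4a2 and Irf4), with a median of 0.08. Over all genes 5.76% were higher and 19.9% lower in that comparison. The counts lie near these shares, so nothing particular to the list is read from them. Against CD8 cells 3 were higher (Dusp2, Nr4a1 and Egr1) and 3 lower (Nr4a2, Tnfrsf9 and Ier3), with a median of -0.16, where 6.62% of all genes were higher and 8.87% lower. Both medians changed sign under alternatives, and Dusp2 was called against dividing CD4 cells in only 5 of 15. Il2 gave 4 UMIs in 4 members, 5 UMIs in 2 dividing CD4 cells and 0 in CD8 cells, a ratio to dividing CD4 cells of 3.33 (0.661 to 15.5) whose interval spans 1. Csf2, which encodes GM-CSF, was in 5 members and 10 dividing CD4 cells, and its interval also spans 1 (ratio 2.38, 0.865 to 6.08). Csf1, the macrophage growth factor gene, was in 18 and 24 (ratio 4.05, 2.49 to 6.59). Its call was kept in 13 of 15 alternatives, but not at matched totals or with cells that had other-lineage genes left out. Ifng was lower in members by the size rule (12.2% and 22.7% at equal depth, log2 -0.87), a call lost under 5 of 15 alternatives and turned to a log2 ratio of 1.37 at matched totals. Tnf, in 2 members, was also lower (ratio 0.438, 0.114 to 1.22), in 8 of 14 alternatives. With Csf2 and Il2 higher, the 10 Th1 and inflammatory genes went both ways, and their median of 0.50 changed sign without the top cell of each gene (-0.18). For Ccl4, a chemokine gene, 418 of 570 UMIs came from 1 member. The library held no untreated cells, so these values say nothing of the effect of the drug.

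Within the IL-2 pathway, Il2ra, the alpha chain gene of the high-affinity receptor, was in 17 members, with at most 3 UMIs in a cell, and 65 dividing CD4 cells. At equal depth it was in 12.2% (5.71 to 21.8%), 21.2% (15.7 to 27.6%) and 25.2% (17.8 to 33.8%) of the 3 groups, and these intervals overlap. Its level was lower than in dividing CD4 cells, with a ratio of 0.510 (0.319 to 0.781), a call that was lost at matched totals (log2 -0.34), under median of ratios scaling (-0.47) and where cells with Ccna2, Cdk1, Aurkb or Birc5 were left out (-0.94). Cish, a feedback inhibitor induced through STAT5, was higher (13 members and 16 dividing CD4 cells, ratio 4.60, 2.35 to 9.05), as were Bcl2 and Pim2. The Cish call was kept in 12 of 15 alternatives. It was lost at matched totals, with a minimum share of 10% and with cells that had other-lineage genes left out. Foxp3, the defining gene of regulatory T cells, was in 1 of 83 members with 1 UMI. Of 11 regulatory T and Tr1 genes, Izumo1r and Nrp1 were higher than in dividing CD4 cells and Il2ra and Il10 lower. Against CD8 cells 4 were higher (Izumo1r, Ctla4, Maf and Ikzf2) and Tnfrsf9 was lower.

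Members were not uniform, and Tcf7 was the gene along which they were split here. The split was chosen after values were seen, and it is a description. The 26 members with a Tcf7 UMI and the 57 without had median depths of 8671.5 and 8725 UMIs. Their cell cycle UMIs had medians of 26.6 and 35.7 per 10000 and highest values of 114 and 189, and 21 of 24 S phase genes were in a larger share of members without Tcf7, Pcna in 5 of 26 and 29 of 57. Id3 was in 17 of the 26 and 5 of the 57. Il6ra was in 13 and 0, Cxcr5 in 12 and 0, and Ccr7 in 9 and 0. Tox2 was in 8 and 1. Every member with Cxcr5 thus had Tcf7. Bcl2 was in 14 of the 26 and 13 of the 57, Tox in 15 and 16, Tnfsf8 in 13 and 4, and Nsg2 in 14 and 4. Of 18 measured type I interferon response genes, 17 were in a larger share of members with Tcf7 and 1 was at 0. Rtp4 was in 21 and 13, Oas1a in 9 and 3, and Ifi27l2a stood at 53.5 and 18.9 UMIs per 10000. Ctss, a cathepsin gene that is on the myeloid and dendritic list, was in 22 and 18.

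Most cytotoxic genes lay on the other side of the split: 15 of 20 measured were in a larger share of members without Tcf7, 2 in a larger share of those with it, and 3 were at 0. Over all genes with a UMI in members, 617 were in a larger share of those without and 441 of those with Tcf7. Gzmb was in 7 of the 26 members with Tcf7 and 51 of the 57 without, at 2.11 and 19.3 UMIs per 10000. Ccr2 was in 3 and 42, and Cxcr6 in 12 and 52, both receptors that take effector cells into inflamed tissue. Il12rb2, through which T cells sense IL-12, was in 2 and 27. Il2ra was in 0 and 17. Il7r, a gene of the naive, memory and stem-like list, was also on this side, in 6 and 38. Prf1 was in like shares, 5 of 26 and 11 of 57. Glrx, a glutaredoxin gene, had the widest gap of all genes on this side, with 6 of 26 and 51 of 57. The helper genes differed less: Cd40lg was in 14 of 26 and 34 of 57, and Icos in 23 and 45. Pdcd1 was in 16 and 32.

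**Figure D4:**
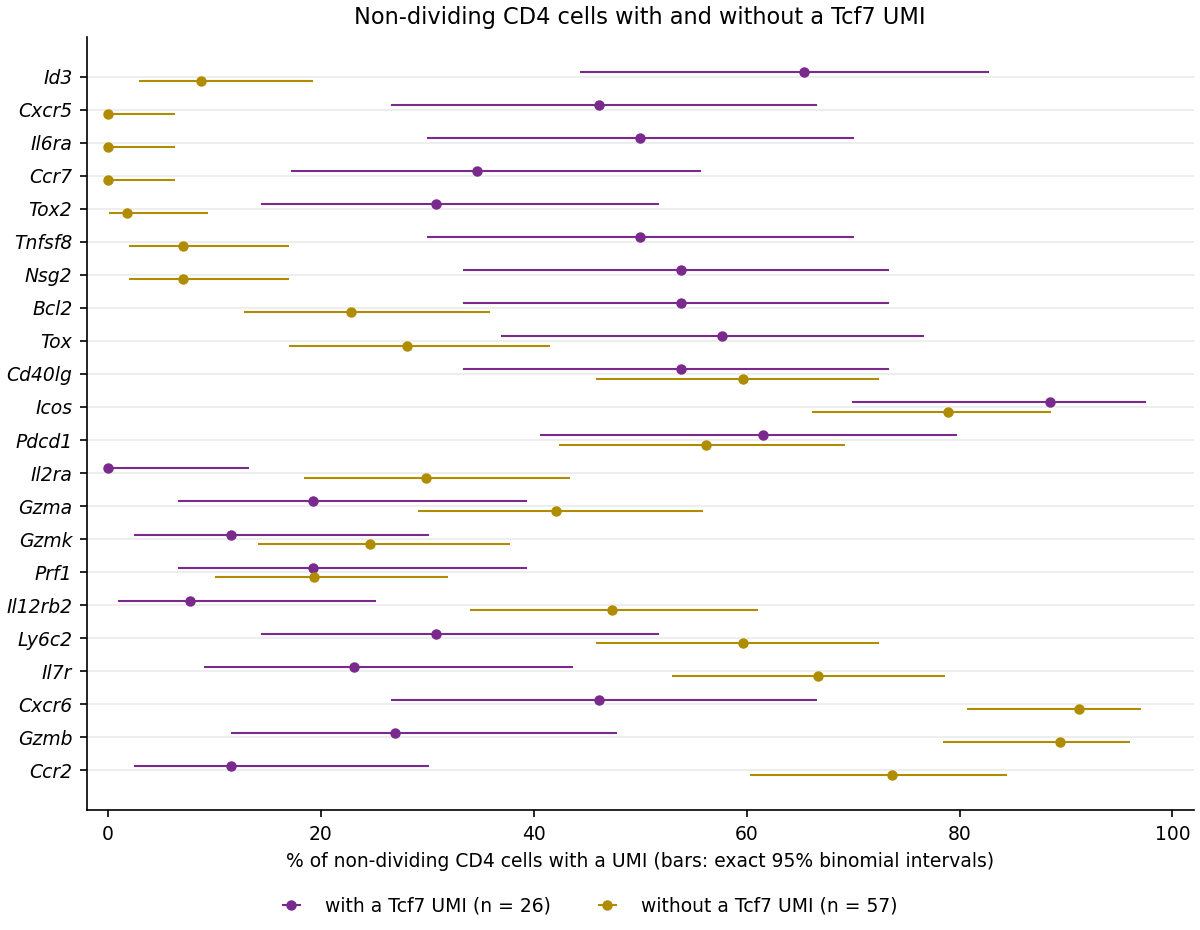
Percent of non-dividing CD4 cells with a UMI of each gene (horizontal axis, unthinned, with exact 95% binomial intervals), for the 26 members with a Tcf7 UMI (purple) and the 57 without (dark yellow). Id3, Il6ra and Cxcr5 lie to the right in members with Tcf7, Ccr2, Gzmb and Cxcr6 lie to the right in members without, and Cd40lg and Icos have overlapping intervals.

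Promoter windows of genes from both sides of the split are shown because tacrolimus acts through NFAT, whose core motif is GGAAA. Sequences are RefSeq windows of 300 bases around gene starts in GRCm38.p6, given 5′ to 3′ on the strand of the gene. Capitals mark GGAAA, or TTTCC where the match is on the other strand.
Tcf7, start 1, chr11:52282965-52283264, minus strand: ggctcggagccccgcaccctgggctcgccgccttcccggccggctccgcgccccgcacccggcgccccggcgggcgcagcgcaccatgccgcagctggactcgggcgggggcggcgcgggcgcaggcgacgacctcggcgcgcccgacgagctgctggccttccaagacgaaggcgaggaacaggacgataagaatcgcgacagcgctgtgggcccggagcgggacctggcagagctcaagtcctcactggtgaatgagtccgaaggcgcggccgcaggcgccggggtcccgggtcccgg
Tcf7, start 2, chr11:52282546-52282845, minus strand: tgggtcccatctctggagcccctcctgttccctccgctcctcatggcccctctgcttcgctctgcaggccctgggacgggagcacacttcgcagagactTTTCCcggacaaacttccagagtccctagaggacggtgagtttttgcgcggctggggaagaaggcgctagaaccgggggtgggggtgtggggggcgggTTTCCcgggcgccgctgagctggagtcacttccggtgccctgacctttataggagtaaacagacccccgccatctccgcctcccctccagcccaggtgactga
Id3, chr4:136143572-136143871, plus strand: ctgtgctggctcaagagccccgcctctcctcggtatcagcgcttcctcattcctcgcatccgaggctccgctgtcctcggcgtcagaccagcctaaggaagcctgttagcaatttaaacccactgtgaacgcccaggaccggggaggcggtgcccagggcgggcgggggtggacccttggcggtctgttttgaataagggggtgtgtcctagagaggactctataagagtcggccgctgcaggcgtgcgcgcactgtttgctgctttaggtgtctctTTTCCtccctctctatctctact
Il2ra, chr2:11642542-11642841, plus strand: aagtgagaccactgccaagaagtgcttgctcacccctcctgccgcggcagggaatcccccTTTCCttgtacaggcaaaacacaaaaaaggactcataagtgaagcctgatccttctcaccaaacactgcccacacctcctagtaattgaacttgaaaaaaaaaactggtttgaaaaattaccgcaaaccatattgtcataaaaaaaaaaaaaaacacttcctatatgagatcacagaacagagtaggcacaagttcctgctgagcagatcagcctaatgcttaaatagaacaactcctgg
Ccr2, chr9:124101933-124102232, plus strand: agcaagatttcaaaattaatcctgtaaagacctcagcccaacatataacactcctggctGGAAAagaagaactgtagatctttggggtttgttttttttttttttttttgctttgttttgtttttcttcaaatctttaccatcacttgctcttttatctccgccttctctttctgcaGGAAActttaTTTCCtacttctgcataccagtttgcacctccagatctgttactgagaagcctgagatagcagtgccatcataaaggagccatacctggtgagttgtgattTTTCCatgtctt
The Tcf7 windows held 0 and 2 matches, Id3 1, Il2ra 1 and Ccr2 4, while the Gzmb window at chr14:56262285-56262584 on the minus strand held 0. Over all 32851 RefSeq promoter windows of the table, 61.3% held at least 1 match on either strand and 9.42% held 3 or more. The core motif of TCF-1, CTTTGA, was in 0 of these 6 windows and 16.0% of all. A match shows only that the letters are there, and no match says nothing of the factor.

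In mm10 with GENCODE M21 annotation, Tcf7 lies on chromosome 11 from 52252371 to 52283014, Id3 on chromosome 4 from 136143497 to 136145755, Cxcr5 on chromosome 9 from 44511787 to 44561877 and Cd40lg on chromosome X from 57212143 to 57224042. Gzmb lies on chromosome 14 from 56258838 to 56262260 and Ccr2 on chromosome 9 from 124101950 to 124113557. Each is annotated as protein-coding.

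The same genes were looked at in cells the split had not used. The 20 genes with the widest gap toward members with Tcf7 and the 20 toward those without were taken as ranked in members. How many of all genes pointed each way was not counted in these other cells, so the counts below have no background beside them. In dividing CD4 cells, of which 18 had Tcf7 and 193 did not, 17 of 20 and 16 of 20 pointed the same way. Nsg2 was in 8 of those 18 and 0 of those 193, Id3 in 8 and 11, and Gzmb in 10 and 185. Cxcr5 was in 0 of both. Dividing CD4 cells with Tcf7 were deeper than those without (17232.5 and 13268 UMIs), and the part of depth in these counts was not tested. In non-dividing CD8 cells, where 9 had Tcf7 with 1 UMI each, 7 of 20 and 12 of 20 pointed the same way, and 3 of the first 20 had no UMI in any of these cells. With so few cells, no difference from CD4 cells is read from this. In 35 cells that met every other part of the rule but had under 200 genes, 13 had Tcf7, and 19 of 20 and 12 of 20 pointed the same way. Those 13 were deeper than the other 22 (5382 and 3191 UMIs), and the part of depth was not tested there either.

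The members were also counted by 2 sets of genes chosen after values were seen, stem-like (Tcf7, Id3, Ccr7, Il6ra and Cxcr5) and cytotoxic (Gzma, Gzmb, Gzmk, Prf1 and Klrd1). There were 16 members with UMIs of the stem-like set only, 50 with UMIs of the cytotoxic set only, 15 with both and 2 with neither. Of the 21 members with at least 2 stem-like genes, 18 had 0 or 1 cytotoxic gene and 3 had at least 2. A further 35 members had 0 stem-like and at least 2 cytotoxic genes. The stem-like set differs from the 5 genes described from the naive, memory and stem-like list in having Cxcr5, found only in members with Tcf7, in place of Il7r, which lay on the other side, so the separation follows in part from the choice of genes. With Il7r in place of Cxcr5, 18 members had stem-like genes only, 19 cytotoxic genes only and 46 both, and of 28 members with at least 2 stem-like genes, 20 had 0 or 1 cytotoxic gene and 8 had at least 2. In the 12 members with Cxcr5, Il6ra was in 10, Bcl2 in 10, Id3 in 9, Tox in 11, Nkg7 in 4 and Gzmb in 1. Ccr2, Il2ra and Havcr2 were in 0 of the 12.

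**Figure D5:**
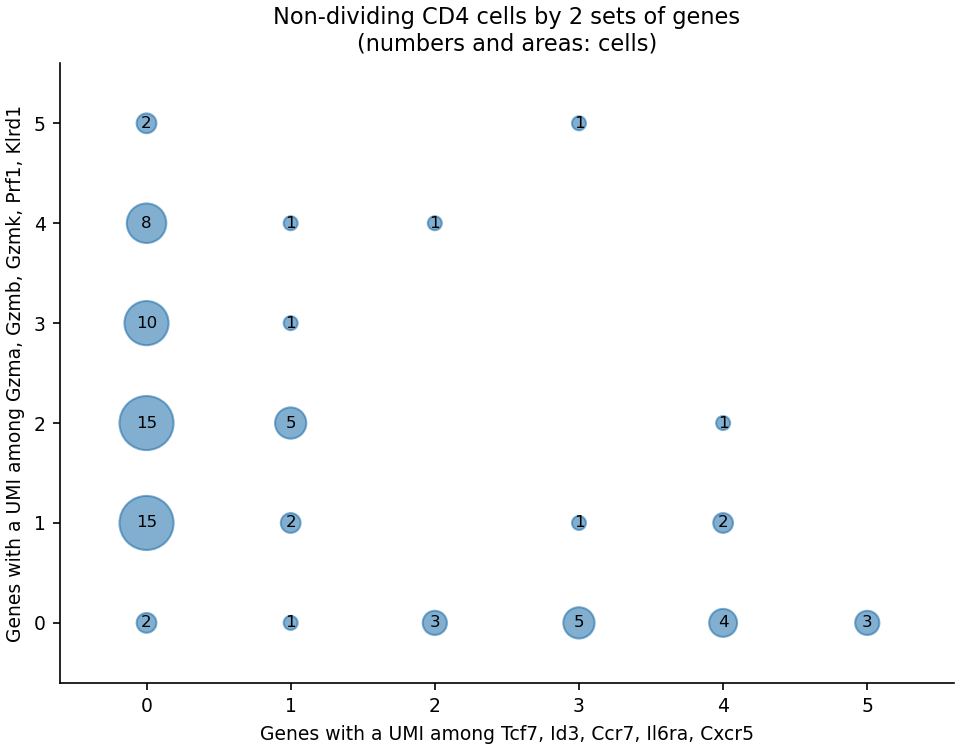
The 83 non-dividing CD4 cells by the number of stem-like genes (horizontal axis, of 5) and of cytotoxic genes (vertical axis, of 5) with a UMI, where the number in each circle and its area give the count of cells. Cells crowd along both axes, with 35 at 0 stem-like and at least 2 cytotoxic genes and 18 at 2 or more stem-like and at most 1 cytotoxic gene. With Il7r in place of Cxcr5, 46 cells have genes of both sets.

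At the edge of the rule, 20 members had a single Cd4 UMI, where the median was 2 and the highest 12. Of these 20, 8 had Tcf7 and 11 had Cd40lg, and of the other 63, 18 and 37 did. Just outside, 23 cells had exactly 1 UMI of Mki67 and Top2a together. Tcf7 was in 3 of them, Cxcr5 in 0 and Ccna2 in 8. A further 13 cells had 1 CD8 UMI beside Cd4, with Tcf7 in 4. The 17 cells with 150 or more but fewer than 200 genes had Tcf7 in 9 and Gzmb in 7, and 31 non-dividing cells had no Cd4 or CD8 UMI, of which 3 had Cd40lg.

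Signs of other cells and of free RNA were measured in the same groups. Of 32 measured genes of pancreatic acinar cells, a cell type of another organ, at least 1 UMI was in 67.6% of members, 54.5% of dividing CD4 cells and 70.7% of CD8 cells at equal depth, and 8 of the 32 were higher in members than in dividing CD4 cells. B-cell genes summed to 0.276, 0.810 and 5.32 UMIs per 10000 in the 3 groups, and in members 6 of 10 were at 0. Myeloid and dendritic genes summed to 2.94, 2.79 and 11.3, with 7 of 20 at 0 in members, and Cst3 was in 62 of 83 members. With every cell that had a defining gene of another lineage left out, 19 members remained, and 57 of the 115 higher and 283 of the 398 lower genes against dividing CD4 cells were called again. With Cst3 not used for this, a choice made after seeing the data, 81 members remained, and 100 and 372 were called again. Both NK genes that were measured were at 0 in members. Gm42418, which overlaps AY036118 on the opposite strand of chromosome 17 and had the most UMIs of all genes in members, stood at 146, 109 and 126 UMIs per 10000. The next were Rps2, Lgals1, Gapdh, Ppia, Ifi27l2a, Hsp90ab1, Rpl14, Vim, Ly6a, Hspa8, Ptma, Nkg7, Gzmb and Fth1. Of these 14, Ifi27l2a was higher than in both other groups, and Nkg7 and Gzmb were lower than in CD8 cells. Ptma stood at 17.6 UMIs per 10000 in members, below the 43.3 of dividing CD4 and the 23.8 of CD8 cells. The part of free RNA and of other cells in these results was not tested.

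The remaining genes with the highest ratios to CD8 cells were Tnfrsf25, Tbc1d4, Ifi204, Angptl2, Egr1 and Izumo1r. Tnfrsf25, which encodes the death receptor DR3, was in 12 members and 2 CD8 cells, and Izumo1r, the gene of folate receptor 4, in 12 and 2. The split against CD8 cells, 42.7% of calls on the higher side, depended on scaling and on the cells. It was 53.0% under median of ratios scaling (159 higher, 141 lower), 54.8% without cells that had Ccna2, Cdk1, Aurkb or Birc5 (172 and 142), and 54.7% with cells that had any other-lineage gene left out (174 and 144), which kept 19 members and 26 CD8 cells.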

How the data were processed

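Droplet 5′ single-cell RNA-seq of spleen cells was available as 1 library per treatment. Reads were processed with Cell Ranger 3.1.0 and Seurat on mm10, per the submitters' processing notes. The authors deposited natural log values of 2000 genes. In tacrolimus columns these equal the natural log of 1 plus a gene's UMIs over the cell's total times 50000, so UMIs and totals were recovered (100% of 637977 values above 0 were whole within 0.001). The anti-IL-2 columns hold negative values, look batch-integrated and were not used. A median of 17.5% of a cell's UMIs lay in the measured genes, none of them mitochondrial, and 4 barcodes occurred in both libraries. Doublets were not called here, and the sources used here do not say how they were treated earlier. UMIs were pooled per group with exact Poisson and binomial 95% intervals. Shares used cells thinned to the 10th percentile of members' totals. List medians cover genes with at least 10 UMIs over both groups compared, and genes at 0 in 1 group entered at the floor of 3 counts. Named genes were the 12 highest and 12 lowest called genes of each comparison, the 15 genes with the most UMIs and list members. A few genes, which count among all genes compared but were left out of the lists, the named genes and the ranking by Tcf7, are not reported here. Rgs10, Glrx, Csf1 and AY036118 were named after their values were seen. The members and lists were chosen with earlier results of these data known. The size rule was also run on simulated counts with known folds. Cells of a simulated group shared a common level for each gene, so uneven levels between cells, as for Ccl4, were not covered. Python 3.11.15, numpy 2.4.6, scipy 1.17.1 and pandas 2.3.3 were used.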

Additional observations from a re-analysis of the deposited data

How the results depend on the processing

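Each comparison was recomputed under 15 alternatives, of which a second random draw of the thinning, leaving out other-lineage cells with Cst3 not used, and leaving out the top cell of each gene were chosen after seeing the data. Counts of called genes were within 1.5 times the reported count in 29 of 30 cases per comparison. The exceptions were 190 genes higher than in dividing CD4 cells under median of ratios scaling and 324 lower than in CD8 cells with no minimum share. Like counts did not mean the same genes: of the 115 genes higher than in dividing CD4 cells, 53 were called again at matched totals, 57 with other-lineage cells left out and 71 with a minimum of 300 genes. List medians changed sign under at least 1 alternative for 12 of 25 lists in each comparison. The changes of sign of called genes, and some of those of lists, were as follows, and the cause was not tested. With a minimum of 300 genes per cell (24 members), against dividing CD4 cells Ccr7 was -0.15, Nrp1 -0.0133, Tnfsf8 -0.0711 and the B-cell list 0.49, and against CD8 cells Entpd1 was 0.95, Klrg1 0.26 and Tox2 -0.88. Without cells with Ccna2, Cdk1, Aurkb or Birc5 (59 members), Klrg1 was 0.0857 against CD8 cells. At totals in the interquartile range of members (41 members, 26 dividing CD4 cells), against dividing CD4 cells Gzma was -0.85, Ifi27l2a -0.0532, Ifng 1.37, Il7r -0.0982, Isg15 -0.47, Izumo1r -0.0493, Klrg1 -1.22, Myc 0.0438, Rtp4 -0.0062, the homing list -0.15 and the interferon-gamma list -0.70, and against CD8 cells Fbxo5 was 0.30 and the S phase list 0.13. With other-lineage cells left out (19 members), against dividing CD4 cells Bcl2l11 was -0.41, Gzma -0.19, Irf4 0.31, Tnf 0.63 and Tnfsf8 -0.12, and Gzmc was 0.0162 against CD8 cells. With the size rule on thinned shares the B-cell and plasma cell lists were 0.83 and 3.005 against dividing CD4 cells and 0.32 and 0.73 against CD8 cells. Without the top cell of each gene the plasma cell list was 2.06 and 0.98 in the same order. The alternative that required a CD3 gene was not run, since 0 of the CD3 genes were measured. No paired analysis was possible because each treatment had 1 library and no test was made. Genes with few UMIs in 83 cells are limited by depth.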
